A study of Mus musculus with 8 samples.

Results

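The arrays described here follow W20-expressing N31 cells over the first 72 h of reprogramming. They are the 2 arrays of W20 cells taken 72 h after reprogramming was started and the 2 arrays of W20 cells kept as progenitors, 4 of the 8 arrays in the series, chosen by their labelled cells and stage. The other 4 arrays hold EGFP-expressing N31 cells at the same stages and serve as the comparison. N31 is a line of neural progenitor cells derived from mouse embryonic stem cells. W20 is named in the labels without a description, and the title of the series speaks of proteins from bacteria. Every group is thus the same line, labelled as expressing W20 or EGFP, and the controls express a foreign protein, EGFP. The progenitor groups were grown in a neural progenitor medium with EGF and basic FGF, each at 10 ng/ml. For the 72 h groups the same basal medium received doxycycline at 40 ng/ml for 48 h. A GMEM medium with knockout serum replacement at 10%, ACTH at 1 µM, LIF at 1000 U/ml and the same dose of doxycycline followed for 24 h. The labels do not say what doxycycline induces, and their wording leaves unclear which growth factors were in the second medium. Stage, medium and doxycycline therefore change together.

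Neural progenitor cells divide under EGF and FGF signalling and can give neurons, astrocytes and oligodendrocytes. Reprogramming returns a differentiated or committed cell to pluripotency, the state of embryonic stem cells, usually by forced expression of a few transcription factors, among them Oct4 (gene Pou5f1), Sox2, Klf4 and Myc. Early in this process cells commonly lose genes of the starting cell type and change proliferation and metabolism, while the core pluripotency genes are commonly switched on later. LIF acts through its receptor and STAT3 and supports mouse pluripotent cells in culture.

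RNA was measured on a 1-colour Agilent whole mouse genome array. Levels are given as log2 of the processed signal minus the array's 75th percentile, so a value of 0 lies at that percentile and a step of 1 is 2-fold. Levels of different probes are not comparable with each other. The W20 progenitor arrays had 75th percentiles of 878 and 851 signal units and the W20 72 h arrays of 827 each, and between 57.0% and 60.5% of probes were well above background on these 4 arrays. All 4 progenitor arrays of the series were on 1 slide and all 4 arrays of the 72 h stage on another, so stage and slide cannot be told apart in the change over 72 h. A shift common to a slide cancels where the change in W20 cells is set against that in EGFP cells. Replicate arrays correlated at r = 0.999 over genes in both W20 groups, and their median SD was 0.030 in progenitors and 0.041 at 72 h. Nothing in the labels says that the replicate arrays stand for independent cultures, and the p-values therefore reflect array-to-array spread that may be technical.

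The defining markers of the labelled cell type were partly present. Nestin (3.20 and 3.24 in W20 progenitors) and vimentin (6.99 and 7.13), intermediate filament genes of neural progenitors, were well above the 75th percentile of their arrays, and Sox2, Sox9, Pax6, Notch1 and Egfr were well above background on all 4 W20 arrays. Sox1 was well above background on 1 of 2 W20 progenitor arrays, and Olig1, Olig2, Nr2e1 and Emx2 on none of the 8 arrays. Among 16 immune cell markers on the array 4 could be tested, and Ptprc, the gene of the leukocyte antigen CD45, was well above background on no array. The endothelial genes Pecam1 and Cdh5 were also well above background on no array.

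The comparison of the stages asks which genes changed while W20 cells were taken towards pluripotency. Of 13619 genes tested, 5104 (37.5%) were higher and 5066 (37.2%) lower at 72 h at an adjusted p under 0.05 in limma, 74.7% in all. Calls of at least 2-fold numbered 1182 higher (8.68%) and 1243 lower (9.13%). With another background correction (normexp) they numbered 747 and 688. The median change over all genes was 0.0086 on the log2 scale, and the median size of a called change was 0.50. The W20 progenitor and 72 h arrays did not overlap in 87.7% of genes. In EGFP cells 36.1% of genes were higher and 33.9% lower at 72 h. The change in W20 cells differed from that in EGFP cells in 30.9% of genes, 14.1% upwards and 16.8% downwards. Since most genes were called, sizes are given beside the calls.

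The largest rise on probes above background throughout was that of Aldh1a1, which encodes a retinaldehyde dehydrogenase that makes retinoic acid. Its level was -4.36 and -4.32 on the W20 progenitor arrays and 3.02 and 2.90 on the 72 h arrays. The groups did not overlap, and the rise was 7.30 ± 0.056 (SE) on the log2 scale, or 158-fold (limma, adjusted p = 7.28e-08). Its close relative Aldh1a7 went from -2.62 and -2.58 to 4.21 and 4.15, a rise of 6.78 ± 0.036 (adjusted p = 2.64e-08). The 2 genes have similar sequences, and how far each probe detects the other was not tested. Ceacam1, a cell adhesion molecule of epithelia, rose from -4.62 and -4.82 to 2.01 and 2.003 (106-fold, adjusted p = 8.78e-08). Tmem35a, a chaperone for nicotinic acetylcholine receptors, rose from -4.20 and -4.14 to 2.45 and 2.31 (93.8-fold). The W20 stages did not overlap in 87.7% of all genes tested, and a choice by the size of the rise favours such separation. All 10 genes of this group were low in both progenitor arrays and high in both 72 h arrays, with no overlap. The others were Tmod2, a tropomodulin of neurons (52.0-fold), Pthlh, the parathyroid hormone-like hormone (51.6-fold), Parm1 (51.0-fold), the X-linked homeobox gene Esx1 (41.6-fold), Mid2 (39.7-fold) and Sox21, a SoxB2 factor of neural progenitors (38.5-fold). Probes of a gene could differ in size: the 2 other Sox21 probes gave log2 changes of 2.43 and 0.41, and the other Ceacam1 probe 2.25. The same 10 genes rose in EGFP cells too, by 4.66 (Tmod2) to 6.48 (Aldh1a1) on the log2 scale. The rises of Esx1, Mid2 and Sox21 did not differ from the EGFP rise at the threshold (adjusted p = 0.0559, 0.139 and 0.195), while the other 7 were larger in W20 cells. The 10 genes were chosen by the size of their rise in W20 cells, and that choice favours a larger rise there.

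**Figure D1:**
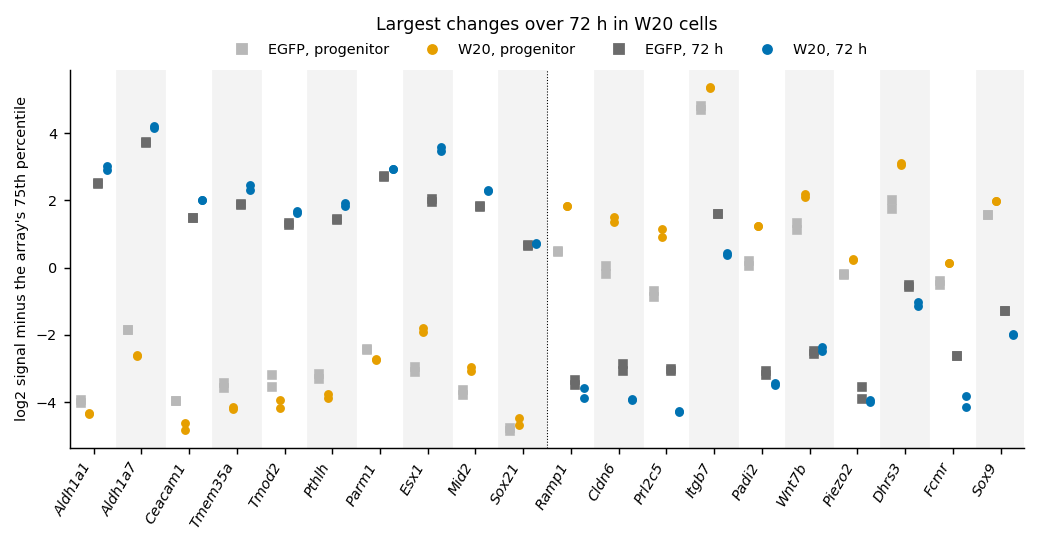
Level (log2 signal minus the array's 75th percentile) of the 10 highest and 10 lowest changes over 72 h in W20 cells on probes well above background on all 4 W20 arrays; each symbol is 1 array, circles are W20 cells and squares EGFP cells. In each of the 20 genes the orange (progenitor) and blue (72 h) circles are separate, and the squares move the same way. The genes were chosen by the size of their change in W20 cells, which favours separate circles.

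A further set of genes was not well above background on any W20 progenitor array and was on both 72 h arrays. For these a bound is given, from the 72 h mean against the lowest signal well above background on the progenitor arrays or the probe's own signal, whichever is higher. Of 291 genes with this pattern, 284 were called and had a bound upwards, 46 of them at 10-fold or more. Of 299 genes with the reverse pattern, 252 were called and had a bound downwards, 5 of them at 10-fold or more. The choice by background at the 2 stages favours a call, so these counts and p-values are not independent of it. Ahsg, which encodes the liver plasma protein fetuin-A, had the largest bound. It was at -7.78 and -7.58 on the progenitor arrays and 3.58 and 3.48 on the 72 h arrays, at least 498-fold higher (adjusted p = 5.30e-08). Lix1 was at least 245-fold higher, Sox2ot, a long RNA whose gene overlaps Sox2, at least 114-fold, Tmem163 at least 107.2-fold and Slurp1 at least 106-fold. Lin7a, a scaffold protein of cell polarity (at least 95.9-fold), Prr15 (at least 73.0-fold) and Helt, a bHLH factor of midbrain GABAergic neurons (at least 72.5-fold), completed this group. Sox2ot stood at -6.99 and -7.38 before and 1.40 and 1.40 after, without overlap. In EGFP cells all 8 genes were higher at 72 h too. Lix1, Lin7a and Prr15, well above background on all 4 EGFP arrays, rose there by 6.74, 4.71 and 3.64, and the other 5 were below background in EGFP progenitors.

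The largest fall on probes above background on all 4 W20 arrays was that of Ramp1, the accessory subunit of the receptor for calcitonin gene-related peptide. Its levels were 1.84 and 1.82 in W20 progenitors and -3.57 and -3.88 at 72 h, and it fell by 5.56 ± 0.10 (47.0-fold, adjusted p = 3.89e-07). Cldn6, a claudin of embryonic epithelia, went from 1.35 and 1.52 to -3.92 and -3.91 and fell by 5.34 ± 0.11 (adjusted p = 4.75e-07). Prl2c5, a member of the proliferin group of prolactin-like hormones, went from 0.91 and 1.14 to -4.25 and -4.30 and fell by 5.30 ± 0.093 (adjusted p = 3.19e-07). Each was higher on both progenitor arrays than on both 72 h arrays. The integrin subunit Itgb7 was 31.1-fold lower, the citrullinating enzyme Padi2 25.8-fold, the ligand Wnt7b 23.6-fold, the mechanically gated channel Piezo2 18.4-fold, the retinaldehyde reductase Dhrs3 17.9-fold, the IgM receptor Fcmr 17.3-fold and Sox9, a factor of neural stem cells and glia, 15.7-fold. Among genes that ended below background at 72 h, Prl2c3 (at least 54.9-fold lower), Dlx4os (at least 16.9-fold), the keratin Krt76 (at least 12.4-fold) and the matrix protease Mmp3 (at least 10.6-fold) had large bounds. Prl2c3 and Prl2c5 are near-identical copies, so their signals may be shared. On the probe used for each gene, all 10 falls were larger in W20 than in EGFP cells. The differences lay 0.66 (Piezo2, adjusted p = 0.0259) to 3.05 (Prl2c5, adjusted p = 2.36e-04) below the EGFP change. The other Piezo2 probe fell by 3.44 and did not differ from its EGFP change (0.12, adjusted p = 0.636). The 10 genes were chosen by the size of their fall in W20 cells, and that choice favours a larger fall there.

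The reprogramming factors did not move together. Of 12 factors listed, 9 were tested. Pou5f1 and Lin28a were well above background on none of the 8 arrays, and no probe here was named Nanog. Sox2, a factor of both neural and pluripotent cells, was at -2.69 and -2.70 in W20 progenitors and -1.99 and -1.92 at 72 h. Both 72 h arrays were higher, the rise was 0.74 ± 0.047 (adjusted p = 2.91e-05), and in EGFP cells the change was -0.12. The difference between the cells was 0.86 ± 0.066 (adjusted p = 7.12e-04), with EGFP arrays at -2.005 and -1.96 in progenitors and -2.05 and -2.15 at 72 h. W20 cells stood at -0.71 against EGFP cells in progenitors and at 0.14 at 72 h (adjusted p = 1.91e-04 and 0.0466). Klf4, which opens chromatin and is part of the usual factor cocktail, went from 3.81 and 3.83 to 2.52 and 2.55 and fell by 1.28 ± 0.035 (adjusted p = 1.18e-06). Klf5, a related factor of embryonic stem cells, went from 1.51 and 1.51 to 0.41 and 0.38 and fell by 1.12 ± 0.039 (adjusted p = 2.86e-06). Klf2 did not pass the test (0.077, adjusted p = 0.176), and its other probe was lower at 72 h, at a change of -0.57. For both Klf4 and Klf5 the fall was larger than in EGFP cells (differences of -0.42 and -0.81, adjusted p = 0.00254 and 5.07e-04).

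The Myc genes encode growth and proliferation factors. Probes of Myc were called in opposite directions, with changes of -3.69, 3.71 and 4.55, so the gene is given no direction. Mycn went from -5.34 and -4.93 to -2.88 and -3.12, with 1 of 2 progenitor arrays well above background. It rose by 2.14 ± 0.15 (adjusted p = 5.09e-05), where in EGFP cells it fell by 0.79, and the difference was 2.93 ± 0.22 (adjusted p = 6.43e-04). EGFP progenitors stood at -1.89 and -1.80, above W20 progenitors, and the 72 h arrays of both cells lay within -3.12 and -2.55. Mycl rose by 1.56 ± 0.11 (adjusted p = 4.00e-05). Glis1, a factor that can replace Myc in reprogramming, did not pass the test at 0.10 ± 0.22 (adjusted p = 0.692). Esrrb, an orphan nuclear receptor of the pluripotency network, was at -3.04 and -2.96 in progenitors and not well above background at 72 h, at least 4.61-fold lower (adjusted p = 1.36e-05).

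Of 30 pluripotency network genes 18 were tested, 5 were higher and 6 lower, a share no greater than that of all genes. Tfcp2l1, a LIF target that sustains self-renewal, went from -5.08 and -4.10 to -1.33 and -1.17 and rose by 3.34 ± 0.30 (adjusted p = 1.34e-04). Both 72 h arrays lay above both progenitor arrays. Tbx3, another self-renewal factor, rose by 0.96. Zfp57, which protects imprints, fell by 1.69, Nr5a2 by 0.82, Fbxo15 by 0.66 and Zfp42 (Rex1) by 0.55. Sall4 (0.083), Dppa5a (-0.087) and Utf1 (-0.25) did not pass the test. Of the 7 germline genes tested, Stra8, a retinoic acid target needed for meiosis, fell by 3.89 ± 0.058 from 0.42 and 0.33 to -3.50 and -3.52, and Rhox5, an X-linked homeobox gene high in these progenitors at 8.03 and 8.04, rose by 0.33.

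Neural genes moved in both directions. Of 23 neural progenitor markers tested, 13 were higher and 6 lower at 72 h, with a median change of 0.72. A marker that is tested only because it is high at 72 h must differ, so the count over the 16 markers well above background on all 4 W20 arrays is given too. There 7 were higher and 6 lower, with a median of 0.073. Of all 12196 genes well above background on these 4 arrays, 38.2% were higher and 37.8% lower. Dach1 rose from -4.83 and -4.73 to 0.17 and 0.20, a change of 4.97 ± 0.12 (adjusted p = 8.24e-07). Pax6, a patterning factor of the forebrain and eye, rose from -1.56 and -1.50 to 0.62 and 0.70 (4.58-fold, adjusted p = 4.75e-07). In both genes and in Sox21 the 72 h arrays lay clear of the progenitor arrays. Ptprz1, a phosphatase receptor of radial glia, was at least 11.7-fold higher, Fabp7 at least 7.14-fold and Prom1 at least 6.39-fold. On the falling side stood Sox9, Egfr, the receptor for the EGF in the progenitor medium (3.84-fold lower), the glutamate transporter Slc1a3 (3.28-fold) and Fut4, whose product makes the SSEA-1 antigen (2.76-fold). Nes fell by 0.45, and Vim did not pass the test (-0.035).

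Several genes of neurons rose and others fell. Of 22 neuronal differentiation genes tested, 12 were higher and 6 lower, 11 and 3 of them at least 2-fold. Of the 13 well above background on all 4 W20 arrays, 6 were higher and 5 lower. Over all genes so well above background, 38.2% were higher and 37.8% lower. Stmn2, a tubulin-binding protein of growing axons, went from -1.26 and -1.27 to 2.13 and 2.10 (10.4-fold, adjusted p = 1.72e-07). Syt1, the calcium sensor of synaptic vesicle release, went from -2.19 and -1.97 to 1.42 and 1.41 (11.3-fold, adjusted p = 8.13e-07). Both were separate from the progenitor arrays by more than 2 log2 units. The neuronal tubulin Tubb3 was 3.32-fold higher. Insm1 and Neurog2, transcription factors of neuronal precursors, were at least 12.3-fold and 6.65-fold higher and were not well above background in progenitors. The adhesion molecule Ncam1 fell by 1.20, Dlx1 by 1.02 and Dlx2 by 0.96, the last 2 being homeobox genes of GABAergic precursors. Dcx, Snap25 and Neurod1 were not tested, since no group had both arrays well above background.

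Of 11 oligodendrocyte genes tested, 8 were higher, 5 of them at least 2-fold, and of the 6 well above background on all 4 W20 arrays 4 were higher, 1 of them at least 2-fold. The lower gene was Pdgfra, the growth factor receptor of the precursors, which fell by 0.43. Mobp, a myelin protein, went from -5.62 and -4.86, not well above background, to 0.011 and -0.087. This is a rise of at least 35.3-fold (adjusted p = 1.07e-05), and that of Ugt8a, which makes the myelin lipid galactosylceramide, was at least 19.4-fold. Sox10 did not pass the test (0.24), and Olig1, Olig2 and Nkx2-2 were well above background on no array. Of 18 astrocyte genes tested 11 were lower and 5 higher (3 over probes above background on all 8 arrays), with a median change of -0.67. The fatty acyl-CoA synthetase Acsbg1 went from 1.50 and 1.61 to -2.18 and -2.09 and was 12.9-fold lower (adjusted p = 2.84e-07). Sparcl1 was 5.73-fold lower, S100b 4.11-fold and Apoe 3.66-fold, while the glycolytic enzyme Aldoc rose by 0.80. Whether fewer cells of a kind or less RNA per cell lies behind such a change cannot be told apart in bulk RNA.

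**Figure D2:**
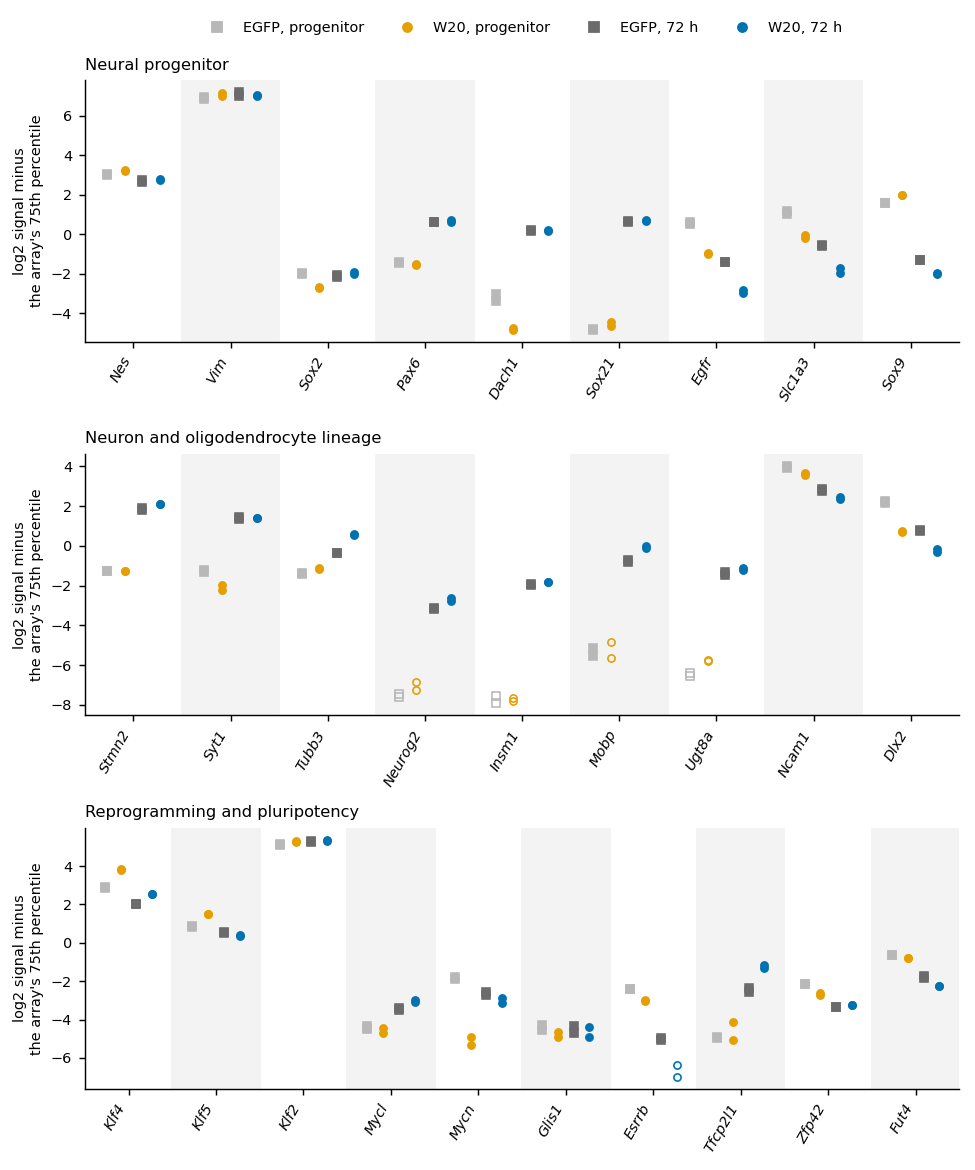
Level (log2 signal minus the array's 75th percentile) of 9 neural progenitor genes, 9 genes of neurons and oligodendrocytes and 10 reprogramming or pluripotency genes on each of the 8 arrays; open symbols mark a group in which the probe was well above background on no array. Pax6, Dach1, Sox21, Stmn2 and Syt1 are higher at 72 h in both kinds of cell, Sox9, Egfr and Klf4 lower, and Mycn is low in W20 progenitors only.

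Most genes that answer to FGF and EGF receptor signalling fell, in cells moved from the progenitor medium. Of 27 tested, all well above background on the 4 W20 arrays, 18 were lower, 14 of them at least 2-fold, and 8 higher, with a median change of -1.09. Averaging all probes of a gene gave a median of -0.69, and in EGFP cells the median was -1.30, with 23 lower and 4 higher. Fosl1, an AP-1 subunit induced by ERK signalling, went from 2.03 and 2.10 to -1.83 and -1.82 and was 14.8-fold lower (adjusted p = 2.23e-07). Etv4 went from 2.86 and 2.90 to -0.72 and -0.71, 12.1-fold lower (adjusted p = 1.25e-07), and Etv5, the other ETS factor driven by FGF, was 7.18-fold lower. In each case both 72 h arrays lay below both progenitor arrays. The ERK phosphatase Dusp4 was 5.49-fold lower, Dusp6 2.44-fold, the EGF receptor inhibitor Errfi1 3.60-fold and the chromatin protein Hmga2 5.54-fold. Against the majority, the immediate early genes Fos and Egr1 rose by 1.42 and 1.36, Lrig3 by 1.09 and the feedback inhibitor Spry4 by 0.89. Spry1 stayed within its spread (-0.012, adjusted p = 0.93) in W20 cells, whereas it changed by -1.66 in EGFP cells.

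LIF and STAT3 targets split, with 13 of 26 tested higher and 12 lower. Of the 23 well above background on all 4 W20 arrays, 10 were higher and 12 lower. The cytokine signalling inhibitor Socs2 was 6.79-fold higher, from -3.57 and -3.71 to -0.78 and -0.98, and the factor Cebpd 4.28-fold higher, from 1.22 and 1.20 to 3.30 and 3.31 (adjusted p = 5.68e-06 and 3.81e-07). Both had 72 h arrays above the progenitor arrays. The LIF receptor gene Lifr rose by 1.92 ± 0.056 (adjusted p = 1.43e-06), the kinase Pim1 by 1.97, Cish by 1.85, Stat3 by 0.78 and Socs3 by 0.71. Osteopontin (Spp1) fell by 1.83, Socs1 by 1.45, Cebpb by 1.18 and the metallothioneins Mt1 and Mt2 by 0.87 and 0.90. Of the 2 stages, the LIF medium was part of the 72 h protocol only.

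In the BMP and TGF-beta group 15 of 27 tested were lower and 9 higher; of the 23 well above background on all 4 W20 arrays, 11 were lower and 9 higher. The inhibitor of differentiation Id4 was 5.04-fold lower, Id1 and Id2 fell by 0.39 and 0.48, and Id3 rose by 0.25. Grem1, a secreted BMP antagonist, ended below background, at least 4.52-fold lower. Hey1 went from -3.85 and -4.03 to 0.13 and -0.013, 16.0-fold higher, and the ligand Tgfb2 from -3.14 and -3.27 to -0.43 and -0.36, 7.005-fold higher. Among Notch genes 10 of 19 tested were higher and 5 lower, and 8 and 5 of the 14 well above background on all 4 W20 arrays. The ligand Dll1 was at least 7.92-fold higher, the modifying enzyme Mfng rose by 1.82 and the feedback inhibitor Nrarp by 1.51. Notch1 fell by 1.03, the nuclear effector Rbpj by 1.49 and Dtx4 by 1.53. Of 28 Wnt pathway genes 16 were higher and 7 lower, and 13 and 5 of the 21 well above background on all 4 W20 arrays. The inhibitor Nkd2 was at least 20.02-fold higher, the secreted antagonist Sfrp2 rose by 3.25, Wnt6 by 2.20 and Lef1 by 1.47, and Wnt7b, Dkk3 (4.00-fold lower) and Tcf7 (2.26-fold) fell.

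Interferon response and antigen presentation genes were lower almost throughout. Type I and II interferons act through STAT proteins and interferon regulatory factors, the latter of which bind GAAA repeats in the promoters of their targets. Of 35 tested, 29 were lower, 15 of them at least 2-fold, and 3 higher, with a median change of -0.60; of the 32 well above background on all 4 W20 arrays, 26 were lower. Psmb9, a proteasome subunit of antigen presentation, fell by 2.62 ± 0.13, from -1.90 and -2.07 to -4.43 and -4.77 (adjusted p = 9.64e-06). Rsad2 (viperin), an antiviral enzyme, went from -2.73 and -2.85 to -5.03 and -4.999 and fell by 2.22 ± 0.11 (adjusted p = 1.22e-05). The GTPases Iigp1, Irgm1 and Igtp fell by 1.72, 1.59 and 1.31, the factor Irf1 by 1.32 and the MHC class I light chain B2m by 0.60. Against the majority the chemokine Cxcl10 rose by 0.67 and Ifitm1 by 0.70. Genes whose probes were called in opposite directions are given no direction and count in a list by their brightest probe. In EGFP cells 28 of the 35 were lower and 4 higher, with a median of -0.64.

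RefSeq promoters (GRCm38.p6, 250 bases before to 50 after the start) were available for 32 of the 40 listed interferon genes. The letters TTTCNNTTTC, or GAAANNGAAA on the other strand, occurred in 17 of these 32 (53.1%) and in 3.99% of all 27025 genes with a promoter in the table. The windows of the 4 genes with the largest falls among tested members with 1 promoter and the motif are printed to show where the letters lie. They hold the motif by that choice, and its share among the lowered genes alone was not computed. Capitals mark the motif, and the sequences run 5′ to 3′ on the gene's strand. In Irgm1, 2 overlapping matches are joined.
Rsad2, chr12:26456528-26456607, minus strand: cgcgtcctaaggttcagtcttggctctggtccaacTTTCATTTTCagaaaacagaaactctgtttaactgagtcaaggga
Irgm1, chr11:48871421-48871485, minus strand: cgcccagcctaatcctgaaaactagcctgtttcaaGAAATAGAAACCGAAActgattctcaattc
Igtp, chr11:58199487-58199555, plus strand: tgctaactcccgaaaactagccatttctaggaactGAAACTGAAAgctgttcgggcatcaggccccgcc
Irgm2, chr11:58214878-58214957, plus strand: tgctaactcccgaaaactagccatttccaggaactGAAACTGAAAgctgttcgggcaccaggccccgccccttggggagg
The match began 120 bases before the start in Rsad2 and 30, 34 and 64 bases before it in Irgm1, Igtp and Irgm2. Igtp and Irgm2 are neighbours of 1 gene family with much the same promoter. A match is a description of letters, and binding was not measured.

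Most genes of matrix remodelling fell too. Of 30 matrix remodelling genes tested, 20 were lower and 9 higher, with a median change of -0.58. The urokinase Plau fell by 2.86 ± 0.053, from 0.69 and 0.78 to -2.19 and -2.07 (adjusted p = 3.70e-07), and its receptor Plaur by 1.34. The stromelysin Mmp10 was 5.63-fold lower, the crosslinking enzyme Loxl1 5.37-fold, Mmp9 3.32-fold and the hyaluronan synthase Has2 2.64-fold. The aggrecanase Adamts5 rose by 2.35, Adamts1 by 0.89 and the basement membrane collagens Col4a1 and Col4a2 by 0.52 and 0.75.

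Neither an epithelial nor a mesenchymal direction was shared by a whole list. Loss of mesenchymal genes and gain of epithelial ones is a known early step when fibroblasts are reprogrammed. Of 28 mesenchymal genes tested, 15 were lower and 6 higher. Snai2, a repressor of epithelial genes, went from 2.67 and 2.70 to 0.34 and 0.29 (5.18-fold lower, adjusted p = 2.61e-07), fibronectin (Fn1) from 2.48 and 2.49 to 0.25 and 0.50 (4.32-fold lower, adjusted p = 1.58e-05) and Loxl2 from 4.18 and 4.14 to 2.14 and 2.11 (4.09-fold lower). Against these, the cadherin Cdh2 rose by 1.39, Col1a1 by 1.56 and the repressor Zeb1 by 0.72. Of 22 epithelial genes 12 were lower and 8 higher. Besides Cldn6, the simple keratins Krt18, Krt8 and Krt19 fell by 2.43, 1.02 and 0.75, and Epcam by 1.32. E-cadherin (Cdh1) rose by 0.79 from a low level of -4.11 and -4.22, the desmosomal protein Dsp by 2.33 and Cldn3 by 1.73. Krt8 and Krt19 changed by 0.22 and 0.39 in EGFP cells, and both differences passed the test (-1.24 and -1.14, adjusted p = 2.46e-04 and 6.10e-04).

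Genes of the actin cytoskeleton and of its factor SRF went both ways, with 16 of 36 tested lower and 14 higher. Ankrd1, a muscle and YAP target gene, was 11.1-fold lower, Fhl2 3.77-fold and the tropomyosin Tpm2 2.46-fold, while Fhl1 was 23.1-fold higher, Ccn1 4.62-fold and skeletal actin (Acta1) 3.84-fold. The change lay below that of EGFP cells in 21 of 36 genes and above it in 3, against 16.8% and 14.1% of all genes. With spike-in scaling 10 lay below, with no filter on dim probes 13, and leaving out single arrays gave between 11 (EGFP progenitor replicate 1 or W20 progenitor replicate 2) and 16. Calponin (Cnn1) had a change of -0.18 that did not pass the test in W20 cells and of 1.51 in EGFP cells, a difference of -1.68 (adjusted p = 0.00137).

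Most proliferation genes moved by less than 2-fold. Of 34 G1/S and DNA replication genes, 11 were higher and 10 lower with a median of 0.017, and of 32 G2/M genes 20 were higher and 5 lower, none of them 2-fold. With scaling to spiked-in RNA, 13 G2/M genes were higher. The cyclin Ccnd3 rose by 1.10 ± 0.031 and the factor E2f2 by 1.22 ± 0.028, the only members past 2-fold, while Mcm4 fell by 0.57 and Ccnd2 by 0.37. Cdk1 rose by 0.68, Nusap1 by 0.72 and Cenpa by 0.64. Among inhibitors and p53 targets 15 of 30 were higher and 10 lower. Cdkn2b, the INK4B inhibitor, went from 6.02 and 6.01 to 3.90 and 3.84 and was 4.42-fold lower (adjusted p = 2.66e-07); Cdkn2a, whose products restrain reprogramming, fell by 0.73 and Trp53 by 0.47. Cdkn1a (p21), on the other hand, rose by 0.84, the death receptor Fas by 2.11, Gadd45g by 1.75 and the p53 target Perp from -0.23 and -0.43 to 3.38 and 3.22, 12.4-fold (adjusted p = 8.97e-07).

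Most genes that build ribosomes or modify chromatin rose. Of 32 ribosome biogenesis and Myc target genes 26 were higher and 2 lower, against 37.5% of all genes higher, with a median of 0.35. The transferrin receptor Tfrc rose by 1.54, spermidine synthase (Srm) by 1.14, Bop1 by 0.92 and Wdr43 by 0.86. The list median in EGFP cells was 0.36. Of 34 chromatin regulators 21 were higher, 8 of them at least 2-fold, and 4 lower. Tet2, which oxidises methylated cytosine, went from -4.33 and -4.36 to -1.84 and -1.65 and rose by 2.60 ± 0.14 (adjusted p = 1.68e-05). The methyltransferase Dnmt3b rose by 1.45 ± 0.040, Jarid2, a Polycomb cofactor, by 1.34, Tet3 by 1.32 and Dot1l by 1.14. Dnmt3l fell by 0.66, and the maintenance enzyme Dnmt1 did not pass the test (0.019). Tet2, Dnmt3b, Jarid2 and Tet3 rose more in W20 than in EGFP cells, by 0.99, 0.66, 0.53 and 0.48 (adjusted p = 0.0165, 9.50e-04, 0.00321 and 0.018). Of 35 oxidative phosphorylation subunits 18 were higher and 3 lower, the largest rise being that of Ndufa4 (0.73). With spike-in scaling 11 were higher. The count of lower subunits was 0 with median scaling, 7 with quantile normalization, and between 0 and 5 when single arrays were left out, with 5 without W20 72 h replicate 1.

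**Figure D3:**
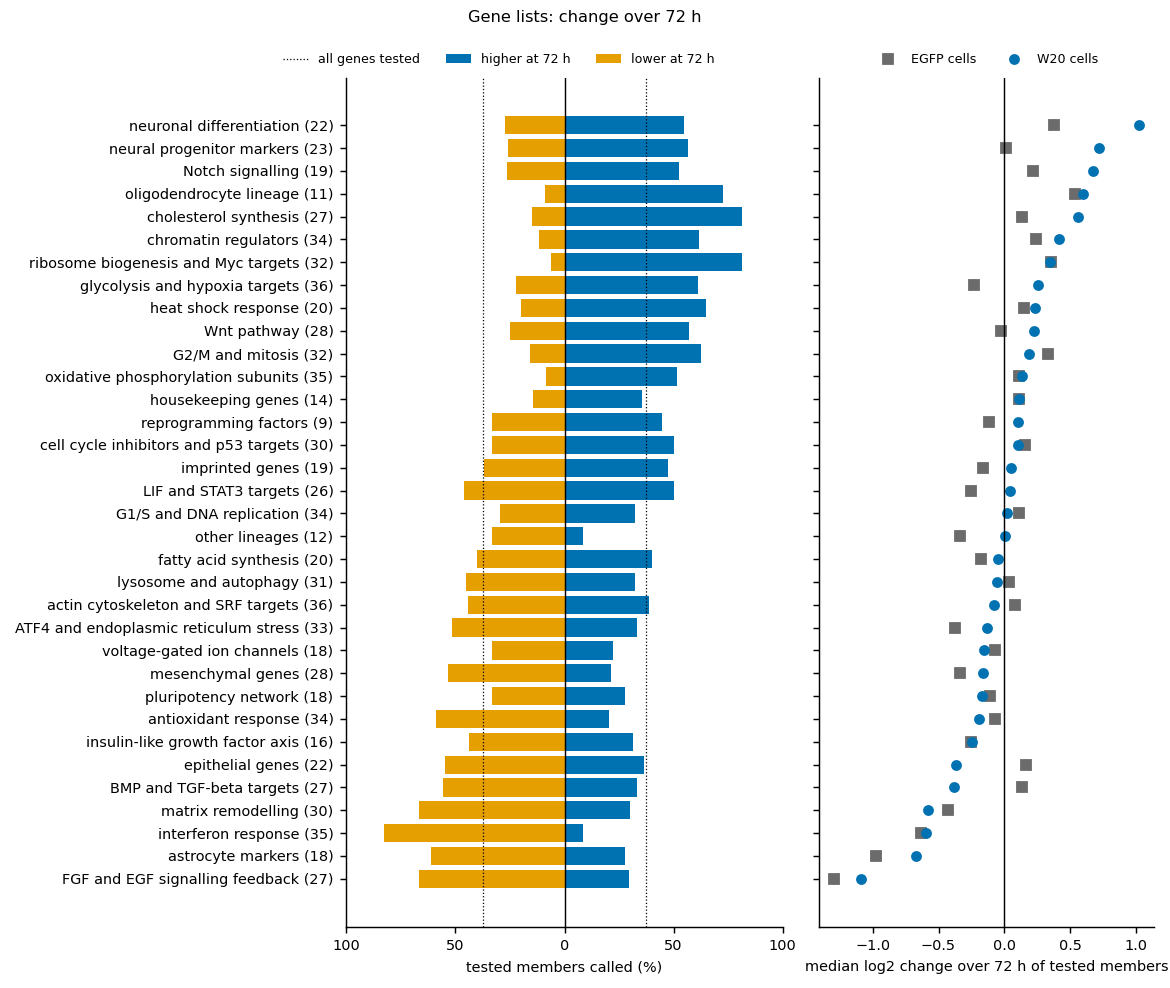
Left, percentage of tested members of each gene list called higher (blue) or lower (orange) at 72 h in W20 cells, with the number tested in brackets and dotted lines at the percentages over all genes tested; right, median log2 change over 72 h of the tested members in W20 (circles) and EGFP cells (squares). Interferon response, FGF and EGF feedback and astrocyte genes fell in both kinds of cell, and the glycolysis medians of the W20 and EGFP cells lie on opposite sides of 0.

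Most glycolysis and hypoxia target genes were higher at 72 h in W20 cells and lower in EGFP cells. In low oxygen the factor HIF-1 binds the letters ACGTG near many of these genes. Of 36 tested, all well above background on the 4 W20 arrays, 22 were higher and 8 lower, with a median of 0.26, and in EGFP cells 6 were higher and 23 lower, with a median of -0.23. The difference from EGFP passed the test upwards in 23 of the 36 and downwards in 1, Hif1a, against 14.1% of all genes upwards and 16.8% downwards (30.9% in all). With spike-in scaling 14 were above. Bnip3, a mitophagy receptor, went from 2.11 and 2.08 to 3.64 and 3.55 in W20 cells and from 2.26 and 2.30 to 1.71 and 1.73 in EGFP cells. The W20 levels rose by 1.50 ± 0.039, the EGFP levels changed by -0.56, and the difference was 2.06 ± 0.055 (adjusted p = 1.14e-04). Ankrd37 rose by 1.27 in W20 cells and changed by -0.81 in EGFP cells (difference 2.09, adjusted p = 2.46e-04). For the vasodilator peptide gene Adm the values were 1.39 and -0.23 (difference 1.62, adjusted p = 1.30e-04), and for the pyruvate dehydrogenase kinase Pdk1 0.98 and -0.12 (difference 1.10, adjusted p = 2.46e-04). The glucose transporter Slc2a3 had the largest rise of the list in both kinds of cell, 4.14 and 3.65. Vegfa and Egln3 fell by 1.23 and 1.03 in W20 cells. The median of W20 minus EGFP over the list was 0.13 in progenitors, with 18 genes called higher in W20 cells and 8 lower. At 72 h it was 0.50, with 32 higher and 2 lower. Over all genes the medians were 0.041 and 0.035.

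Promoters were available for 33 of the 36 genes. The letters ACGTG, or CACGT on the other strand, which also lie in the E-box CACGTG, occurred in 24 of these 33 (72.7%) and in 21.8% of all genes with a promoter in the table. The 4 windows below belong to the genes with 1 promoter and the motif that rose most among those also above their EGFP change; capitals mark the motif.
Egln1, chr8:124949283-124949357, minus strand: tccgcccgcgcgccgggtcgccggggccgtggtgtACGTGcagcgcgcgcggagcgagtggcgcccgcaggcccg
Bnip3, chr7:138909575-138909649, minus strand: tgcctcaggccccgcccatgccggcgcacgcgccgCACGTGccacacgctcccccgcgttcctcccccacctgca
Ankrd37, chr8:46000052-46000100, minus strand: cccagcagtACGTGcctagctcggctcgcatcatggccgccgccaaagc
P4ha1, chr10:59323245-59323295, plus strand: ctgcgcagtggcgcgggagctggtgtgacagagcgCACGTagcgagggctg
In Bnip3 the match reads on both strands. Egln1 encodes an oxygen sensor that marks HIF-1 for destruction and rose by 1.70, and P4ha1, a collagen prolyl hydroxylase subunit, by 0.49.

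Most cholesterol synthesis genes rose, by less than 2-fold. These enzymes are switched on by the factor SREBP2 when sterols are low. Of 27 tested, 22 were higher and 4 lower, none of them 2-fold, with a median of 0.56. Cyp51, lanosterol demethylase, went from 0.55 and 0.51 to 1.54 and 1.48 and rose by 0.98 ± 0.036 (adjusted p = 3.40e-06). Dhcr7, the last enzyme of the pathway, rose by 0.92 ± 0.037 (adjusted p = 4.77e-06). The change exceeded that of EGFP cells in 20 genes and lay below it in 1, Ebp, against 14.1% and 16.8% of all genes. The EGFP median was 0.13. With median and spike-in scaling 13 and 11 exceeded it. Hmgcs1 rose by 0.67 in W20 cells and changed by -0.096 in EGFP cells (difference 0.76, adjusted p = 0.00102). Tm7sf2 and the regulators Srebf1 and Srebf2 fell by 0.78, 0.53 and 0.28. Of 20 fatty acid synthesis genes 8 were higher and 8 lower (5 lower without W20 72 h replicate 2); Acss2 and Acacb, which supply and carboxylate acetyl-CoA, rose by 1.40 and 1.32, and Acaca and Fads2 fell by 0.51 and 0.48.

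**Figure D4:**
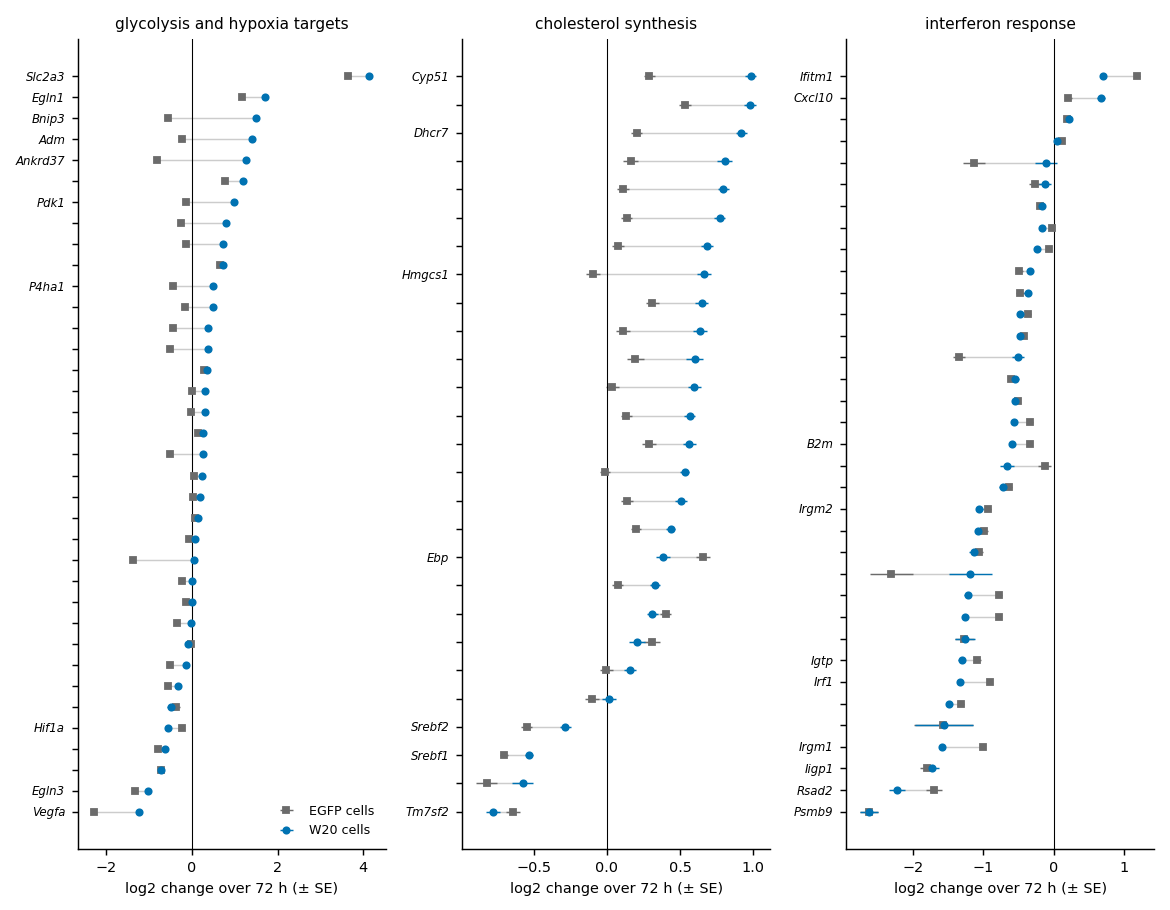
Log2 change over 72 h (± SE of the fit) of each tested member of 3 gene lists in W20 (circles) and EGFP cells (squares), in the order of the W20 change; the members described in the text are labelled. Blue circles lie to the right of grey squares for most glycolysis and cholesterol genes (differences called upwards in 23 of 36 and 20 of 27, against 14.1% of all genes). Both lie left of 0 for most interferon genes.

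Stress genes were split. Of 33 ATF4 and endoplasmic reticulum stress genes, 17 were lower, 8 of them at least 2-fold, and 11 higher. ATF4 drives amino acid supply under stress, and its target Cth, an enzyme of cysteine synthesis, was 5.17-fold lower, Trib3 3.52-fold, the cystine transporter Slc7a11 2.63-fold and Ddit3 (CHOP) 2.58-fold. The falls of Trib3 and Slc7a11 were smaller than in EGFP cells, by 1.73 and 1.88 (adjusted p = 3.67e-04 and 1.66e-04). The chaperones Hspa5 (BiP), Canx and Manf rose by 0.41, 0.41 and 0.41, and Edem1 by 0.84. Of 20 heat shock genes 13 were higher and 4 lower, with Hspb8 in front (3.75-fold higher, from 1.01 and 1.05 to 2.94 and 2.94) and Hspb1 (0.81). Of 34 antioxidant genes 20 were lower and 7 higher (4 with spike-in scaling): Aox1 fell by 2.35, Srxn1, which repairs peroxiredoxins, by 1.55, the quinone reductase Nqo1 by 1.14 and ferritin (Fth1) by 0.88, while Gsta4 rose by 1.05 and Sod2 by 0.61. Of 31 lysosome and autophagy genes 14 were lower, among them Ctsh (3.86-fold), and 10 higher, among them Ctsz (0.86).

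Several smaller lists held single large changes. Among 19 imprinted genes 9 were higher and 7 lower, and 7 and 7 of the 16 well above background on all 4 W20 arrays. Plagl1 was at least 6.16-fold higher, Nnat 3.49-fold higher, Dlk1, a Notch ligand relative, 8.39-fold lower and the growth factor Igf2 5.63-fold lower. In the insulin-like growth factor axis (5 of 16 higher, 7 lower) Igfbp2 was 20.1-fold higher, from -5.06 and -4.75 to -0.44 and -0.71, Igf1 was 6.64-fold higher and the binding proteins Igfbp4 and Igfbp7 4.05-fold and 2.79-fold lower. Of 18 voltage-gated ion channel genes 4 were higher and 6 lower (3 lower with normexp), and of the 12 well above background on all 4 W20 arrays 2 were higher and 3 lower. Of 14 housekeeping genes 5 were higher (3 with spike-in scaling) and 2 lower, with a median of 0.11. In the list of other lineages 1 of 12 tested was higher (2 without W20 72 h replicate 2 and with no filter on dim probes), Kdr (at least 6.66-fold), the VEGF receptor that endothelial cells also carry, and 4 were lower, among them Afp (2.94-fold) and Foxa2 (1.50-fold). Of the 6 endothelial markers tested 2 were higher, Kdr and Tek, neither well above background on all 4 W20 arrays, and 2 lower, Flt1 and Egfl7. Of the 4 immune markers tested 1 was lower, Tmem119, which fell by 0.42.

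Set against the EGFP cells, many genes changed in both, often by different amounts. Of the 1182 genes at least 2-fold higher in W20 cells, 800 (67.7%) were so in EGFP cells, which is 87.8% of the 911 there (6.69% of genes). Of the 1243 lower, 692 (55.7%) were lower in EGFP cells, 77.0% of the 899 there (6.6% of genes). The comparisons share no array but share both slides, and across the 13619 genes the changes correlated at r = 0.88, where genes are not independent replicates. The change itself differed between the cells in 4207 genes (30.9%), 1915 upwards and 2292 downwards. With scaling to the array median the upward count was 1154, and with spike-in scaling the counts were 811 and 1249. Of the 2425 genes at least 2-fold changed in W20 cells, 1431 were called in the difference, which shares the W20 arrays; 587 of those higher and 716 of those lower had gone further than in EGFP cells. In 162 genes the W20 change was called higher, the EGFP change lower and the difference as well, and in 143 genes the reverse.

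The largest upward differences on probes above background on all 8 arrays belonged to genes that started lower in W20 than in EGFP progenitors. A low level in W20 progenitors raises this difference, so the choice of genes by it favours such a start. Cox6a2, a muscle form of a cytochrome oxidase subunit, went from -2.47 and -2.52 to -3.65 and -3.61 in W20 cells and from -0.43 and -0.44 to -5.34 and -5.13 in EGFP cells, a difference of 3.67 ± 0.097 (adjusted p = 1.14e-04). Fhl1, a LIM protein of muscle and cytoskeleton, went from -1.95 and -1.90 to 2.68 and 2.52 in W20 cells and from 0.29 and 0.26 to 1.99 and 1.93 in EGFP cells (difference 2.84 ± 0.084, adjusted p = 1.14e-04). Pcdh10, a protocadherin of neurons, went from -3.17 and -3.04 to -0.14 and -0.17 against -0.030 and 0.23 to 0.34 and 0.38 (difference 2.69, adjusted p = 2.46e-04). In these and in the other 5 genes of the group both W20 progenitor arrays lay below both EGFP progenitor arrays. The others were the laminin Lama4 (difference 2.68), Egr1 (2.27), Wnt6 (2.24), Tgfb2 (2.14) and Txnip, an inhibitor of glucose uptake (2.12).

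The largest downward differences on probes above background on all 8 arrays were those of Prl2c5, Ankrd1, Rasgrp3, Cldn6, mesothelin (Msln), the dopamine receptor Drd4, Spns3 and Lect2, from -2.06 (Lect2) to -3.05 (Prl2c5). Ankrd1 went from 1.31 and 1.41 to -2.17 and -2.07 in W20 cells and from 0.82 and 0.72 to -0.021 and -0.061 in EGFP cells, a difference of -2.67 ± 0.082 (adjusted p = 1.14e-04). Msln, a surface protein of mesothelium, went from 5.37 and 5.38 to 1.49 and 1.49 against 4.06 and 3.95 to 2.41 and 2.40 (difference -2.29 ± 0.058, adjusted p = 1.14e-04). Drd4 fell by 2.34 in W20 cells and changed by -0.23 in EGFP cells, and Rasgrp3, an activator of Ras, fell by 2.67 and changed by -0.16. In all 8 of these genes both W20 arrays of the 72 h stage lay below both EGFP arrays of that stage. A low W20 level at 72 h lowers the difference, so the choice of genes by it favours this.

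**Figure D5:**
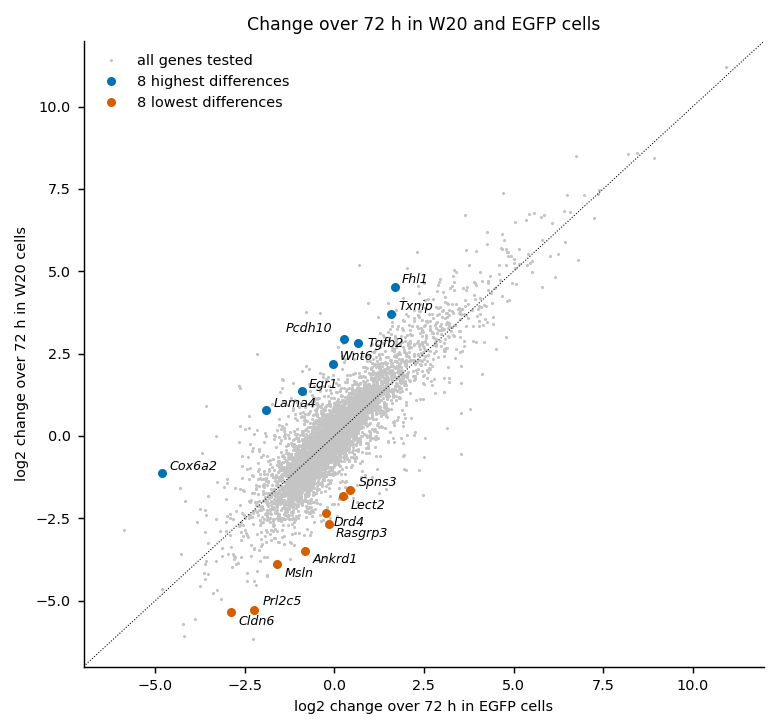
Log2 change over 72 h of 13619 genes in W20 cells (vertical) against EGFP cells (horizontal), with equal change on the dotted line; the 8 highest and 8 lowest differences on probes well above background on all 8 arrays are named. The changes correlated at r = 0.88 across genes, and the difference was called in 30.9% of them. Egr1 and Lama4 rose in W20 cells and lie left of 0, and Prl2c5 and Cldn6 fell in both, further in W20 cells.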

How the data were processed

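RNA of 8 samples was labelled with Cy3 and hybridised to 1-colour Agilent arrays, and the authors extracted spot intensities with Agilent's Feature Extraction software, per the labels. The deposited processed signal intensity is already background-subtracted, per the file headers. It was scaled here to each array's 75th percentile over non-control spots and put on the log2 scale. The authors' deposited value table of log2 values was not used, because its columns named for the first 72 h replicates matched means of progenitor arrays and those named for the second matched means of 72 h arrays. Of 41174 probes, 27584 were named through RefSeq accessions, giving 18842 genes; the brightest probe stood for a gene. The 13619 genes whose probe passed the background test on the 2 arrays of any group were tested in limma 3.58.1 (R 4.3.3) with 4 group means over 8 arrays, eBayes and Benjamini-Hochberg adjustment over all genes at 0.05. The method was tested on simulated data.

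Genes were named by size (10 each way on probes above background throughout, 8 bounds and 8 differences each way), by list (up to 4 members each way) and as reprogramming factors. Further list members were named for their known roles after their values were seen. The members and lists were chosen with earlier results of these data known. The deviations of same-numbered replicates correlated at -0.091 to 0.148 over 6 pairs of groups, above 0.1 in 3 of them and at 0.013 between the W20 groups, so the numbers were not taken as pairs and no block was used. Some genes are not reported here.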

Additional observations from a re-analysis of the deposited data

Results flagged for a closer look

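The change over 72 h differed between W20 and EGFP cells in the interaction test of limma in 1915 genes upwards and 2292 downwards. On probes well above background on all 8 arrays, the 8 largest such differences upwards, as the W20 change minus the EGFP change on the log2 scale, were those of Cox6a2 (3.67), Fhl1 (2.84), Pcdh10 (2.69), Lama4 (2.68), Egr1 (2.27), Wnt6 (2.24), Tgfb2 (2.14) and Txnip (2.12). The 8 largest downwards on such probes were those of Prl2c5 (-3.05), Ankrd1 (-2.67), Rasgrp3 (-2.51), Cldn6 (-2.46), Msln (-2.29), Drd4 (-2.11), Spns3 (-2.08) and Lect2 (-2.06).

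Among the reprogramming factors, Mycn (2.93), Sox2 (0.86) and Mycl (0.62) differed upwards and Esrrb (-1.08), Klf5 (-0.81) and Klf4 (-0.42) downwards. Esrrb was not well above background in W20 cells at 72 h, so its value is no measured size, and it was 0.26 with normexp background correction. The differences of Mycl and Esrrb were near the threshold (adjusted p = 0.028 and 0.0323), and Mycl lost its call under 9 of the alternatives tried and Esrrb under 8.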

How the results depend on the processing

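The counts of genes called higher or lower over 72 h, of any size, stayed within 1.5 times under each alternative run. With normexp background correction (on median signals, the mean signal not being used here) the 2-fold counts were 747 and 688. The counts of differences from EGFP cells were 1154 upwards with median scaling and 811 and 1249 with spike-in scaling. With the replicate block the counts were 5109 and 5068, at 2-fold 1185 and 1245, and for the difference 1818 and 2186; the numbers do not pair the samples, and the block moved no count by over 1.5 times. Among single genes, the values that turned sign were the Klf2 change (-0.00048 with quantile normalization, -0.25 over the mean of its probes), the Esrrb difference (0.26 with normexp), the Myc difference (-0.57 over the mean of its probes), and for Glis1 the change (from -0.17 to 0.37) and the difference (from -0.063 to 0.47) when single arrays were left out. The change of Ndufs3 lost its call under 13 alternatives and that of Suz12 under 6. The slide as a block could not be fitted, since each slide holds 1 stage. The median change of neural progenitor genes moved to 0.073 over probes above background on all 8 arrays. With no filter on dim probes the medians of epithelial (0.015), pluripotency (0.10), ion channel (0.088) and endothelial genes (0.23) turned from lower to higher. Over probes above background on all 8 arrays those of LIF and STAT3 targets (-0.22), imprinted genes (-0.094) and other lineages (-0.082) turned to lower and that of fatty acid genes (0.076) to higher. The imprinted median also turned with quantile normalization (-0.0017), the endothelial one with normexp (0.040) and over the mean of all probes (0.56), and those of other lineages, immune markers and fatty acid genes when single arrays were left out; the cause was not tested. With 2 arrays a group the number of arrays limits the precision, and genes below background at 1 stage have only a bound.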

Other observations

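Hox genes, which pattern the body axis, formed a family not described above and chosen after its values were seen. All those tested but Hoxb8 and Hoxd13 were well above background on both W20 progenitor arrays. Of 21 tested, 14 were higher and 4 lower in W20 cells at 72 h, with a median change of 0.74. In EGFP cells 11 were higher and 7 lower, with a median of 0.31. Of all genes tested, 37.5% were higher and 37.2% lower in W20 cells, and 36.1% and 33.9% in EGFP cells. Hoxd13 was at least 33.2-fold higher, Hoxb8 at least 2.1-fold and Hoxa9 5.28-fold in W20 cells. Among 19 genes of retinoid metabolism and signalling, also chosen afterwards, 9 were higher and 9 lower in W20 cells, against the same 37.5% and 37.2%. Their medians were 0.12 in W20 and -0.44 in EGFP cells.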
